A study of Mus musculus with 6 samples.

Results

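The aldo-keto reductase (Akr) genes described here are 9 of the 53953 rows measured in each library: Akr1a1 (ENSMUSG00000028692), Akr1b3 (ENSMUSG00000001642), Akr1b7 (ENSMUSG00000052131), Akr1b8 (ENSMUSG00000029762), Akr1c12 (ENSMUSG00000021211), Akr1c13 (ENSMUSG00000021213), Akr1c14 (ENSMUSG00000033715), Akr1c19 (ENSMUSG00000071551) and Akr7a5 (ENSMUSG00000028743). They were found by symbol from a list of names, and all 9 were present. That list was chosen by someone who knew the expression values (FPKM) of these same 6 libraries, and it states no threshold, so the differences of its genes between the groups are a description and support nothing further. The list is no level threshold: Akr1b10 and Akr1e1, at 4.50 and 11.9 FPKM with vehicle, are outside it, while Akr1b7 and Akr1b8, at 2.02 and 1.34 FPKM, are inside. All 9 passed the filter on low values (mean over the 6 libraries not under 1 FPKM), and the vehicle mean alone was above 1 FPKM for each.

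Aldo-keto reductases are soluble, mostly single-chain enzymes that use NADPH, or for some members NADH, to reduce aldehydes and ketones to alcohols. Their substrates include sugars, steroids, prostaglandins, retinaldehyde and the reactive aldehydes left by lipid peroxidation, and several of the genes are known targets of NRF2, the transcription factor of the antioxidant response. In the gut lining they are known for clearing dietary and lipid-derived carbonyls. The mouse genes fall into subfamilies: AKR1A (Akr1a1), AKR1B (the aldose reductase group, Akr1b3, Akr1b7 and Akr1b8), AKR1C (the hydroxysteroid dehydrogenase group, Akr1c12, Akr1c13, Akr1c14 and Akr1c19) and AKR7 (Akr7a5).

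The libraries came from organoids, crypt-derived epithelial cultures, made from the proximal small intestine (mouse strain C57BL/6, wild type) and grown in Matrigel at passage 3 to 5. One group of 3 libraries was from organoids given arachidonic acid, an omega-6 fatty acid, for 3 days before passaging, and the other group of 3 from organoids given the vehicle, 0.1% ethanol, in which the fatty acid was also dissolved. RNA was extracted from whole organoids 3 days after that passage. The sources used here do not give the dose of the fatty acid or the age and sex of the mice, and no label ties the 3 libraries of a group to separate animals or cultures. The p-values below therefore reflect library-to-library spread alone, which could be purely technical.

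Values are FPKM, fragments scaled by gene length and by the assigned fragments of the library, and the depth behind them was about 35600000 to 50800000 fragments per library. Arachidonic acid replicate 1 stood apart: on the first principal component of all tested genes it lay at 10.2, with the other two libraries of its group at 54.6 and 58.1 and the vehicle libraries at -41.6 to -40.4. Its place is therefore given for the members below as a position on an FPKM scale where 0 is the vehicle mean and 1 the mean of its group's other libraries. Epithelial markers were present in all libraries, with a summed level of 2969 to 3076 FPKM with vehicle and 4378 to 5262 with arachidonic acid over 8 genes. The keratins Krt8, Krt18 and Krt19 were called higher, and Epcam, an epithelial adhesion protein, and Cdx2, an intestinal transcription factor, lower. Without the 3 keratins, left out after their values were seen, the sum was 1317 to 1395 FPKM with vehicle and 1130.2 to 1319 with arachidonic acid. Markers of other cells were low: of 7 stromal, 6 immune and 4 endothelial markers, 6, 5 and 4 were under 1 FPKM in every library, and Cdh5, an endothelial cadherin, was at 0 throughout. The exceptions were Vim, a mesenchymal intermediate filament, and Cd68, a lysosomal protein of macrophages. Vim was at 4.13 to 5.66 FPKM with vehicle and 0.373 to 1.46 with arachidonic acid and was called lower. Cd68 was at 1.53 to 2.14 and 3.52 to 23.9 FPKM and was called higher. The part of the cells they mark in the differences below was not tested.

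The sequences of the genes show which members can be measured apart. Akr1b3, Akr1b8, Akr1b10 and Akr1b7 follow each other on chromosome 6 in this order, and Akr1c14, Akr1c18, Akr1c13, Akr1c19, Akr1c12, Akr1c6, Akr1c20, Akr1c21 and Akr1e1 on chromosome 13. Akr1a1 and Akr7a5 lie apart on chromosome 4. The coding sequences of Akr1c12 and Akr1c13, each 969 bases long, were identical at 96.2% of aligned bases, the highest value among the listed genes. Akr1b8 and Akr1b7, each 948 bases long, were 85.7% identical, and Akr1c19 was 79.1% identical to Akr1c12. Of all stretches of 100 bases in its GENCODE M21 transcripts, Akr1c12 shared 11.5% with transcripts of another gene, and Akr1c13 9.36%, in both cases each other. The figures were 7.36% for Akr1b3, 4.30% for Akr1c14 and 3.32% for Akr1c19, shared with genes annotated as pseudogenes, and 0 for Akr1a1, Akr1b7, Akr1b8 and Akr7a5. The sources used here do not say how fragments that match several genes were counted, so the separate values of Akr1c12 and Akr1c13 are uncertain. The longest stretch that both share without a difference, 228 bases from base 34 to base 261 of either coding sequence, is shown because no fragment that lies within it can be assigned to one of them:
Akr1c12 and Akr1c13, shared coding stretch: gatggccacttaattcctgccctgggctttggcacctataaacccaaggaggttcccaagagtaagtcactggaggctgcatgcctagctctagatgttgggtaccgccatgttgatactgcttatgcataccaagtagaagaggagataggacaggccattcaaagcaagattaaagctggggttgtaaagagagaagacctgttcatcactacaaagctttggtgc

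**Figure D1:**
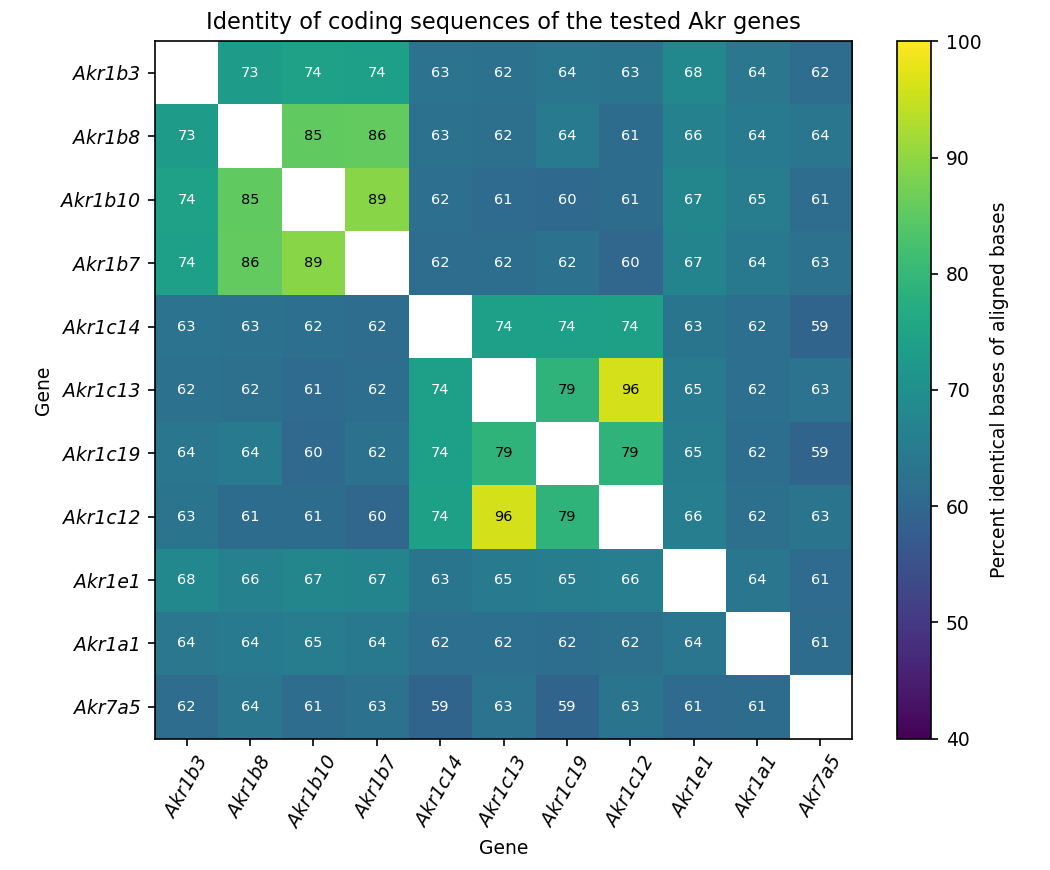
Percent of identical bases between the coding sequences of the 11 tested Akr genes, in a global alignment with gap positions left out (GENCODE M21, longest coding sequence of each gene). Both axes list the genes, and the colour and the number in each cell give the percentage. Akr1c12 and Akr1c13 form the most alike pair at 96.2%, and Akr1b7, Akr1b8 and Akr1b10 form a group at 85.4% to 89.2%.

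Upstream sequence was available for 8 of the 9 genes, all but Akr1b3, as the 250 bases before to the 50 bases after the start in RefSeq on GRCm38.p6. The promoters of Akr1c12 and Akr1c13 were also near copies, with 284 identical bases, 12 mismatches and 8 gap bases in their alignment (93.4% identity). They are shown for this likeness, and its bearing on the levels of the genes was not tested. Capitals mark the 12 mismatched bases:
Akr1c12, chr13:4279350-4279649, minus strand: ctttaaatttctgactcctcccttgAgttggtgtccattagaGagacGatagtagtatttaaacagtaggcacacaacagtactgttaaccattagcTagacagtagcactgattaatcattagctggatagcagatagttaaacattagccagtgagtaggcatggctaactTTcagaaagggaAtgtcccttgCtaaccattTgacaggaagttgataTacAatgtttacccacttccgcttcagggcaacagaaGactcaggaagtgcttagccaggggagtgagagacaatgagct
Akr1c13, chr13:4190937-4191236, plus strand: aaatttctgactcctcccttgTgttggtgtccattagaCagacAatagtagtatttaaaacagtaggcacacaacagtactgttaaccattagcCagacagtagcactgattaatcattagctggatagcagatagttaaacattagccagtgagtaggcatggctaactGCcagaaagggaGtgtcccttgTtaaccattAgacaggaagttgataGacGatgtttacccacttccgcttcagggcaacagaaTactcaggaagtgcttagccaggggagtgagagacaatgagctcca

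Both strands were searched for the letters TGACNNNGC (the core of the antioxidant response element bound by NRF2), TGANTCA (AP-1 site, which can overlap the former), CACGTG (an E-box) and the direct repeat bound by PPAR with RXR. Among the 8 promoters the only match was of the antioxidant core, in Akr1c19, 8 to 16 bases after the start. Of all 32851 RefSeq promoters of this length 12.4% held that core, 7.81% the AP-1 letters, 7.15% the E-box and 0.0396% the direct repeat. The Akr1c19 promoter is shown with the match in capitals, and that of Akr1b8, which held none of the 4, because its gene had the largest difference of the list:
Akr1c19, chr13:4233490-4233789, plus strand: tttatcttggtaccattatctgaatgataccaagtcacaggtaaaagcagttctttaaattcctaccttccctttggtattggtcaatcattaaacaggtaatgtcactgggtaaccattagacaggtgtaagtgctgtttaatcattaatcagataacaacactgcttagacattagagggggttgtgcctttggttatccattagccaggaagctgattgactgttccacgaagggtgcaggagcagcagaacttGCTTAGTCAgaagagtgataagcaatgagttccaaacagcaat
Akr1b8, chr6:34353896-34354195, plus strand: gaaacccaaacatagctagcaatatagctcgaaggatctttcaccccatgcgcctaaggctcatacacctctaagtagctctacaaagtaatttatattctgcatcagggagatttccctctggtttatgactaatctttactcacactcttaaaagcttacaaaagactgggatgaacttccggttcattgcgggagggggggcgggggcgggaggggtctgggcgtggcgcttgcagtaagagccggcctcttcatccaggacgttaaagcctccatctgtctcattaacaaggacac
A match is a run of letters and not a bound site, and no match says only that the letters are not in these 300 bases.

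With vehicle the levels of the 9 genes spanned from 1.34 to 564 FPKM. Akr1a1, the aldehyde reductase that also reduces glucuronate on the way to ascorbate in mice, was highest at 564 ± 17.1 FPKM (mean ± SD, n = 3 libraries, as for all means here). It was followed by Akr1c13 at 211 ± 12.3, Akr7a5 at 136 ± 7.69, Akr1c12 at 95.4 ± 6.45, Akr1c14 at 34.7 ± 4.59, Akr1c19 at 24.7 ± 3.51, Akr1b3 at 15.8 ± 0.536, Akr1b7 at 2.02 ± 0.581 and Akr1b8 at 1.34 ± 0.435 FPKM. In this order the vehicle libraries of neighbours did not overlap, except for Akr1b7 and Akr1b8. With arachidonic acid Akr1b8 moved from last to second place, and there 3 pairs of neighbours overlapped: Akr1b8 with Akr1c13, Akr1c12 with Akr7a5, and Akr1c14 with Akr1b7. The order between genes depends on the length the authors divided by, which matched the mean length of a gene's transcripts: over the length of the merged exons, an alternative chosen after seeing the data, Akr1c12 stood above Akr7a5 with vehicle, and Akr1b8 was first with arachidonic acid, its libraries overlapping those of Akr1a1.

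**Figure D2:**
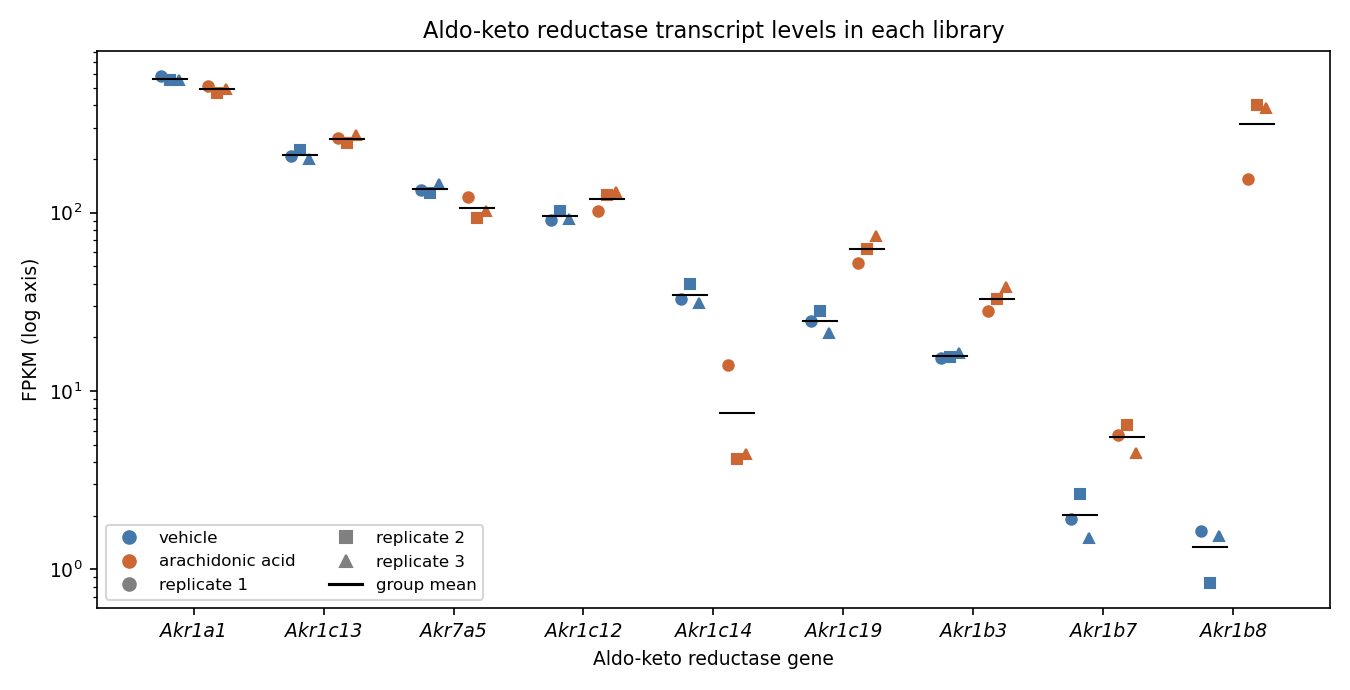
FPKM of the 9 genes in each library on a log axis, with vehicle in blue, arachidonic acid in orange, the replicate by symbol and a bar at each group mean, ordered by the vehicle mean. Akr1b8 sits at 0.842 to 1.65 FPKM with vehicle and at 155 to 402 with arachidonic acid, while Akr1c14 drops from at least 31.3 to at most 14.1 FPKM.

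The comparison of arachidonic acid with vehicle asks which transcripts of the organoids differ after exposure to the fatty acid. In a limma fit on log2(FPKM + 1) across 12913 genes, with Benjamini-Hochberg adjustment over all of them and a threshold of 0.05, 5 of the 9 genes were higher (Akr1b8, Akr1c19, Akr1b7, Akr1b3 and Akr1c13) and 2 lower (Akr1c14 and Akr7a5), beside 20.8% of all tested genes called higher and 19.4% lower (40.2% either way). Over all genes these were 2690 higher and 2502 lower, against 2409 and 2969 after quantile normalization and 3156 and 2099 after rescaling to TPM. Without arachidonic acid replicate 1 they were 3554 and 4192, and without any other 1 library 1712 to 1958 and 1245 to 1491. The libraries of the groups did not overlap for 8 members, 5 with arachidonic acid above and 3 below, beside 27.6% and 27.5% of all tested genes (55% either way). Nothing is read from these counts, since the list was drawn up with the values known. The median log2 fold change was 0.31 over the members and -0.03 over all tested genes. In these bulk samples a lower level can mean fewer cells of a type or less RNA per cell, which cannot be told apart.

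Akr1b8, the aldose reductase-like protein first described as induced by fibroblast growth factor, had the largest difference. Its level was 1.65, 0.842 and 1.53 FPKM in vehicle replicates 1 to 3 and 155, 402 and 389 FPKM in arachidonic acid replicates 1 to 3. The lowest arachidonic acid library, replicate 1, was thus far above every vehicle library, and its position was 0.39. The vehicle values rest on 34.0 to 68.0 recovered fragments and the arachidonic acid values on 8663 to 20820, so counting error weighs on the former. The ratio of the mean levels was 235, and the log2 fold change was 6.97 (SE 0.37, 95% interval 6.09 to 7.86, limma adjusted p = 0.00027). The 1 added to the FPKM is close to the vehicle level, so the fold change on this scale is smaller than the ratio of means. With 0.1 in place of 1 added to the FPKM the log2 fold change was 7.70. With limma-voom on the recovered fragments it was 7.79 with a wider SE of 0.94 (limma adjusted p = 0.0024).

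The other two aldose reductase genes were also higher, by far less. Akr1b3, aldose reductase itself, which turns glucose into sorbitol, was at 15.4, 15.6 and 16.4 FPKM with vehicle and at 28.1, 32.7 and 38.1 with arachidonic acid. The groups stood well apart, with a ratio of means of 2.09 and a log2 fold change of 1.01 (SE 0.11, limma adjusted p = 0.0017). Akr1b7, an aldose reductase-like protein known from the vas deferens and adrenal gland, was at 1.92, 2.65 and 1.499 FPKM with vehicle and at 5.64, 6.41 and 4.47 with arachidonic acid. Its ratio of means was 2.72 and its log2 fold change 1.11 (SE 0.18, limma adjusted p = 0.005). Arachidonic acid replicate 1 lay at a position of 0.63 for Akr1b3 and of 1.06 for Akr1b7, so that for Akr1b7 it was in the middle of its group. Within a library, the level of Akr1b8 was 0.0540 to 0.107 times that of Akr1b3 with vehicle and 5.51 to 12.3 times with arachidonic acid. Over merged exon lengths, an alternative chosen after seeing the data, these ratios were 0.172 to 0.341 and 17.5 to 39.1.

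Akr1b10, the gene between Akr1b8 and Akr1b7 on the chromosome and outside the list, was at 3.996, 4.70 and 4.79 FPKM with vehicle and at 11.0, 15.6 and 16.1 with arachidonic acid. It rose with a log2 fold change of 1.46 (SE 0.15, limma adjusted p = 0.0014). All 4 genes of the run on chromosome 6 were called higher, beside 20.8% of all tested genes. The others of the run are members of the list, so nothing is read from this count. In the run on chromosome 13 the calls were mixed: Akr1c19 and Akr1c13 higher, Akr1c14 lower, and Akr1c12 and Akr1e1 not passed. The summed level of the 4 genes on chromosome 6 was 22.9 to 24.2 FPKM with vehicle and 199 to 457 FPKM with arachidonic acid, most of the latter from Akr1b8.

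The hydroxysteroid dehydrogenase group split. Akr1c19, a dehydrogenase of broad substrate range, was at 24.7, 28.2 and 21.2 FPKM with vehicle and at 51.9, 62.2 and 73.6 with arachidonic acid. The lowest library with arachidonic acid was above the highest with vehicle, the ratio of means was 2.53 and the log2 fold change was 1.302 (SE 0.15, limma adjusted p = 0.0018), with arachidonic acid replicate 1 at a position of 0.63. Akr1c14, which encodes a 3-alpha-hydroxysteroid dehydrogenase that acts on steroids such as dihydrotestosterone, was at 32.8, 39.9 and 31.3 FPKM with vehicle and at 14.1, 4.16 and 4.41 with arachidonic acid. All 3 libraries with arachidonic acid were below all vehicle libraries, replicate 1 least so, with a position of 0.68. The log2 fold change of Akr1c14 was -2.24 (SE 0.40, 95% interval -3.20 to -1.29, limma adjusted p = 0.0067), and its mean level with arachidonic acid was 0.218 times that with vehicle. Without arachidonic acid replicate 1 the log2 fold change was -2.75 and the ratio of means 0.124.

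The near-copies Akr1c12 and Akr1c13, reductases that can work with NAD(H), had small differences upward. Akr1c13 was at 207, 225 and 201 FPKM with vehicle and at 264, 245 and 271 with arachidonic acid. The groups did not overlap, and the log2 fold change was 0.30 (SE 0.07, limma adjusted p = 0.017). Its call was lost without vehicle replicate 1, vehicle replicate 3 or arachidonic acid replicate 3 (limma adjusted p = 0.0622, 0.0623 and 0.0702) and with the replicate number as a block (0.051). Akr1c12 was at 91.0, 103 and 92.3 FPKM with vehicle and at 102, 125 and 129.9 with arachidonic acid. Here arachidonic acid replicate 1 fell just under vehicle replicate 2, so the groups overlapped, and the log2 fold change of 0.31 (SE 0.11, 95% interval 0.06 to 0.56) did not pass (limma adjusted p = 0.054). Without arachidonic acid replicate 1 it was 0.42 (limma adjusted p = 0.0012), and it also passed after rescaling to TPM (0.037) and with the replicate number as a block (0.0498). The ratio of Akr1c13 to Akr1c12 ranged from 2.18 to 2.28 with vehicle and was 2.58, 1.96 and 2.09 with arachidonic acid, where replicate 1 was above and the other two below the vehicle range. Arachidonic acid replicate 1 had a position of 1.12 for Akr1c13 and 0.21 for Akr1c12. In fragments, without division by length, Akr1c13 had 1.297 to 1.71 times as many as Akr1c12.

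The other two members were among the most abundant and had small differences downward. Akr7a5, an aldehyde reductase known for aflatoxin dialdehyde and succinic semialdehyde, was at 133, 129.5 and 144 FPKM with vehicle and at 122, 93.5 and 103 with arachidonic acid. The groups did not overlap, and the log2 fold change was -0.36 (SE 0.11, limma adjusted p = 0.034). Testing all genes regardless of level ended this call (limma adjusted p = 0.0731), as did rescaling to TPM (0.0546) and leaving out any 1 library other than arachidonic acid replicate 1 (0.0725 to 0.109), and without that replicate the log2 fold change was -0.46 (0.00078). Akr1a1 was at 584, 557 and 552 FPKM with vehicle and at 517, 468 and 496 with arachidonic acid. Every library with arachidonic acid was below every vehicle library, but the log2 fold change of -0.19 (SE 0.06, 95% interval -0.35 to -0.04) did not pass (limma adjusted p = 0.051). It passed without arachidonic acid replicate 1 (-0.23, limma adjusted p = 0.015), with a minimum mean of 5 FPKM (0.048) and after quantile normalization (0.038). Arachidonic acid replicate 1 had a position of 0.37 for Akr7a5 and 0.58 for Akr1a1.

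**Figure D3:**
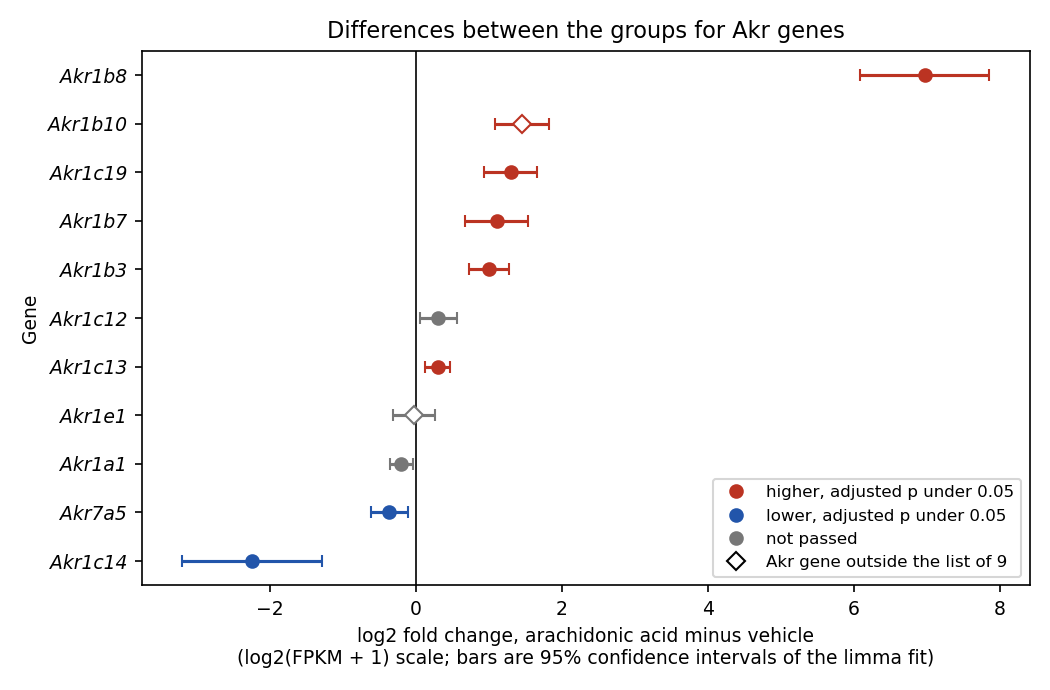
Log2 fold change, arachidonic acid minus vehicle, on the log2(FPKM + 1) scale, for the 9 genes (filled circles) and the 2 other tested Akr genes (open diamonds), with 95% confidence intervals of the limma fit over 3 libraries per group. Akr1b8 lies at 6.97 and Akr1c14 at -2.24, and the other 9 genes lie between -0.36 and 1.46.

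The summed level of the 9 genes was 1061 to 1101 FPKM with vehicle and 1259, 1439 and 1509 FPKM in arachidonic acid replicates 1, 2 and 3. Shares of this sum depend on the gene length divided by, as the order of levels does, and the share of 1 gene also moves with the levels of the others. Akr1a1 made up 50.6% to 53.5% of the sum with vehicle and 32.5% to 41.0% with arachidonic acid. Akr1b8 went from 0.0765% to 0.151% of it to 12.3%, 27.9% and 25.8%. Akr1c14 went from 2.95% to 3.62% of the sum to 1.12%, 0.289% and 0.292%. Akr1c12, at 8.33% to 9.33% with vehicle and 8.11% to 8.69% with arachidonic acid, kept an overlapping share. So did Akr1c13, at 18.9% to 20.4% with vehicle and 17.0% to 21.0% with arachidonic acid.

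**Figure D4:**
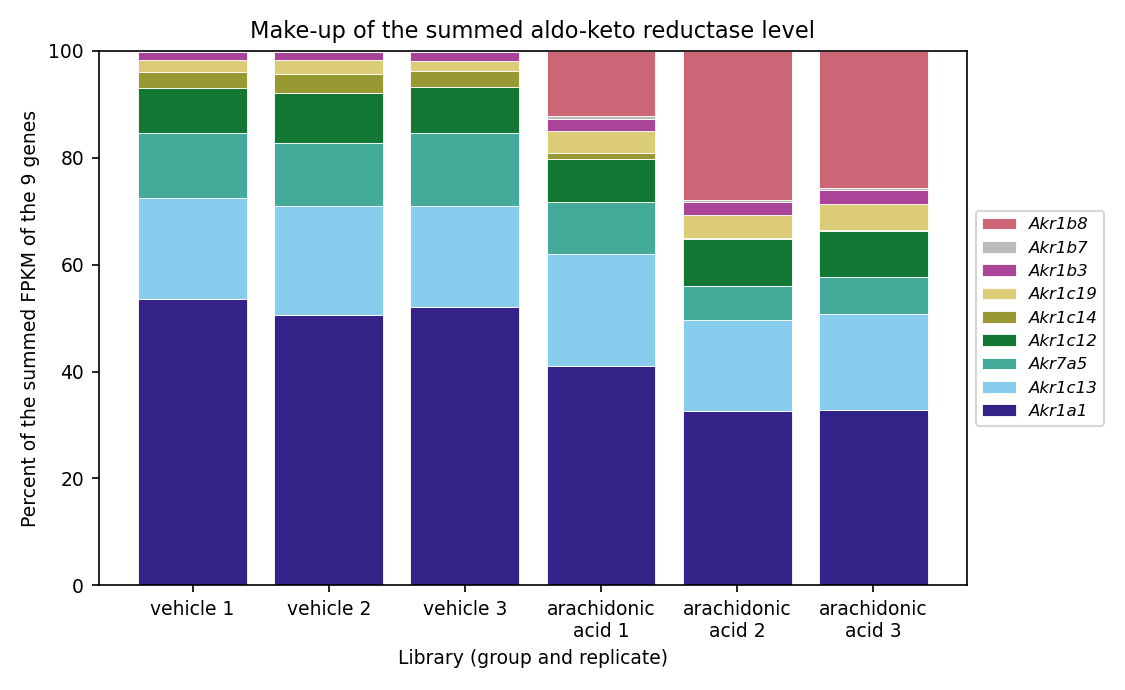
Share of each gene in the summed FPKM of the 9 genes, in percent, for each of the 6 libraries as stacked bars that reach 100%. The shares depend on the gene length that the FPKM divide by. Akr1b8 is barely visible in the vehicle libraries, at most 0.151%, and takes 12.3% in arachidonic acid replicate 1 and 25.8% to 27.9% in the other two.

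Of 11 other genes of the superfamily, 2 were tested, Akr1b10 (above) and Akr1e1, which reduces 1,5-anhydrofructose. Akr1e1, at 11.4, 11.9 and 12.5 FPKM with vehicle and 9.67, 13.2 and 12.6 with arachidonic acid, did not pass (log2 fold change -0.03, 95% interval -0.31 to 0.26, limma adjusted p = 0.88). Akr1c6, Akr1c20 and Akr1cl were listed at 0 in every library. Akr1c18, the 20-alpha-hydroxysteroid dehydrogenase of the ovary, Akr1c21, Akr1d1, the bile acid reductase of the liver, Kcnab1 and Kcnab2 were under 0.4 FPKM in every library. Kcnab3, a potassium channel subunit of the same fold, was at 0.771 to 0.848 FPKM with vehicle and 1.04 to 1.32 with arachidonic acid and, with a mean over all libraries under the filter, was not tested.

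The other genes around these enzymes are given as 8 lists with 97 distinct tested genes, of which 57 rose and 17 fell. The count that fell was 26 without arachidonic acid replicate 1 and 6 to 8 without any other 1 library. Over all tested genes 20.8% were called higher and 19.4% lower, and the counts of each list stand beside these shares. The lists were chosen with earlier results of these data known, so their counts are a description only. Of NRF2 targets and regulators, 27 of 29 tested rose, none fell, and the median log2 fold change was 1.68. The list also holds regulators of NRF2, so this count is not of targets alone. Gclc, which limits glutathione synthesis, was at 57.4, 57.4 and 62.1 FPKM with vehicle and at 262, 729 and 904 with arachidonic acid (log2 fold change 3.22, SE 0.43, limma adjusted p = 0.0027). Arachidonic acid replicate 1 was the lowest of its group for Gclc as for Akr1b8. Gsta2 and Gsta3, glutathione transferases, and Srxn1, sulfiredoxin, rose by log2 fold changes of 3.47, 2.81 and 2.93, and Abcc2, an exporter of conjugates, by 1.03. Nfe2l2, which encodes NRF2, rose from 81.2 ± 6.25 to 126 ± 7.12 FPKM with a log2 fold change of 0.63 (SE 0.08, limma adjusted p = 0.0024). Over the called genes of this list arachidonic acid replicate 1 had a median position of 0.50. The same median was 0.62 over all called genes and 0.63 over the called members, so an intermediate place of this library is not particular to the list.

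NADPH, the usual electron donor of aldo-keto reductases, comes from a few dehydrogenases. Of 10 tested genes of its supply 5 rose, none fell and the median was 0.55. Me1, cytosolic malic enzyme, rose from 10.8 ± 1.54 to 132 ± 17.4 FPKM with a log2 fold change of 3.49 (SE 0.13, limma adjusted p = 8.2e-05). G6pdx and Pgd, the dehydrogenases of the pentose phosphate pathway, rose from 56.4 ± 3.30 to 143 ± 17.2 FPKM and from 257 ± 18.1 to 538 ± 71.1 FPKM. Nadk, the kinase that makes NADP, rose by a log2 fold change of 0.57.

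Other enzymes that act on aldehydes and ketones rose and fell. Of 14 tested aldehyde dehydrogenases, which oxidise what aldo-keto reductases reduce, 8 rose and 3 fell (median 0.77). One of them, Aldh3a1, had a vehicle mean under 1 FPKM and passed the filter through the other group. Aldh1a1, which makes retinoic acid from retinaldehyde, rose by a log2 fold change of 2.52, Aldh3a2, the fatty aldehyde dehydrogenase, by 1.95 and Aldh1a7 by 1.09. Aldh3a1 was listed at 0, 0 and 0.0204 FPKM with vehicle and at 29.9, 246 and 312 FPKM with arachidonic acid, the same order of libraries as for the glutathione gene Gclc. Its vehicle values rest on 0 or 1 fragment per library, and its call did not hold with limma-voom on the recovered fragments (limma adjusted p = 0.0993). Of 15 tested carbonyl reductases and alcohol dehydrogenases 5 rose and 4 fell (median 0.06). Cbr3 and Cbr1, carbonyl reductases of another protein family, rose from 55.5 ± 7.63 to 431 ± 94.0 FPKM and from 237 ± 33.5 to 687 ± 155 FPKM, and Nqo1, a quinone reductase, from 22.7 ± 5.40 to 136 ± 46.1 FPKM.

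Other lists hold genes that share a substrate path with single members. Around Akr1b3, of 7 tested polyol and fructose genes 3 rose and 3 fell (median -1.27). Sord, which oxidises the sorbitol made by aldose reductase, was at 80.5, 88.2 and 82.5 FPKM with vehicle and at 92.3, 150.3 and 152 with arachidonic acid, with replicate 1 near the vehicle libraries. Its call (log2 fold change 0.61, limma adjusted p = 0.041) was lost without any 1 library other than arachidonic acid replicate 1 (0.0905 to 0.126), when all genes were tested regardless of level (0.0978) and after quantile normalization (0.0567). Khk, ketohexokinase, fell from 366 ± 29.8 to 94.9 ± 59.7 FPKM (log2 fold change -2.10, limma adjusted p = 0.0065). Hk1, a hexokinase, rose by a log2 fold change of 3.54. Hk2 rose by 0.93 (limma adjusted p = 0.034), and this call ended when all genes were tested regardless of level (0.0862) and without any 1 library other than arachidonic acid replicate 1 (0.0723 to 0.107).

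Around Akr1a1, of 7 tested genes of glucuronate reduction and ascorbate 4 rose and 2 fell (median 0.78). Ugdh, which makes UDP-glucuronate, rose from 51.3 ± 2.52 to 321 ± 105 FPKM, and Ugp2, which makes its precursor UDP-glucose, from 76.6 ± 4.10 to 138 ± 18.1 FPKM. Slc23a2, an ascorbate transporter, rose by a log2 fold change of 0.78, and Xylb, xylulokinase, fell by 0.85. Gulo, the last enzyme of ascorbate synthesis, was not tested because its mean was under 1 FPKM.

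Several AKR1B and AKR1C enzymes are known to act on prostaglandins and steroids. Of 8 tested prostaglandin genes 5 rose and 2 fell (median 0.94), and 3 of the 8 had a vehicle mean under 1 FPKM, so that they passed the filter through the other group. Ptgs2, the inducible cyclooxygenase, was at 0.245, 0.0341 and 0.0539 FPKM with vehicle and at 3.15, 6.81 and 11.1 with arachidonic acid (log2 fold change 2.72, limma adjusted p = 0.0028). The 1 added to the FPKM is above each of its vehicle values and makes this fold change smaller. Its ratio of means was 63.2, and under the alternatives its log2 fold change ran from 2.36 to 6.19. Ptgr1, a prostaglandin reductase that also reduces alkenals, rose from 162 ± 5.95 to 408 ± 99.6 FPKM. Ptges2, a prostaglandin E synthase, fell by 0.41 (limma adjusted p = 0.017), a call lost without vehicle replicate 1 or 3 or arachidonic acid replicate 2 or 3 (0.0507 to 0.071). Of 11 tested steroid genes 4 rose and 3 fell (median 0.01). Hsd17b2, which inactivates sex steroids, rose from 3.62 ± 0.262 to 23.1 ± 8.04 FPKM, Hsd17b11 by a log2 fold change of 1.69 and Hsd17b4, of peroxisomal oxidation, by 0.96, while Hsd17b10 fell by 0.37.

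**Figure D5:**
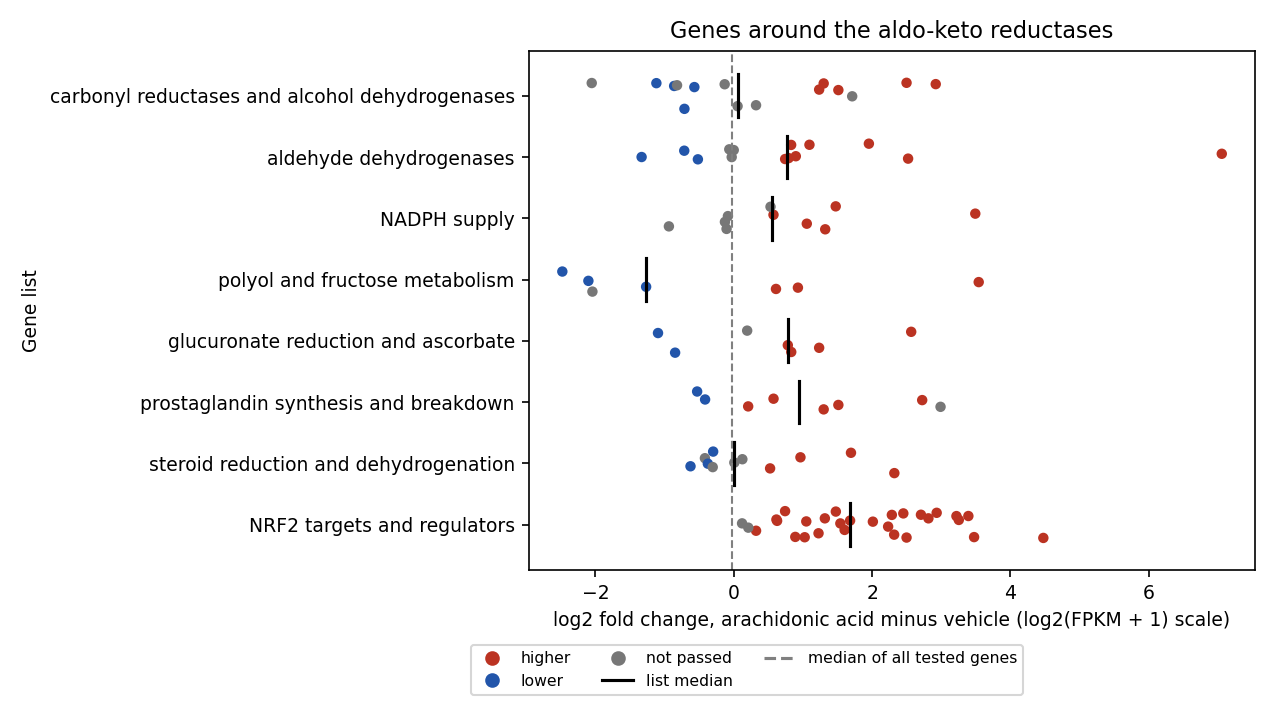
Log2 fold change of each tested gene of the 8 lists, arachidonic acid minus vehicle on the log2(FPKM + 1) scale, in red where higher, in blue where lower and in grey where not past the limma threshold, with a black bar at the median of each list and a dashed line at the median of all tested genes, -0.03. The NRF2 list lies wholly to the right of that line with a median of 1.68, and the polyol and fructose list has a median of -1.27.

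Markers of the epithelial cell types moved between the groups as well. For comparison, 20.8% of all tested genes were called higher and 19.4% lower. The summed level of 8 enterocyte markers was 1086 to 1386 FPKM with vehicle and 1940 to 4946 with arachidonic acid, with 2 genes higher (Alpi and Fabp1) and 3 lower (Sis, Lct and Apoa4). Fabp1, a fatty acid binding protein, was at 313 to 412 FPKM with vehicle and at 4094, 1984 and 1617 with arachidonic acid. Without it, a choice made after its values were seen, the other 7 genes summed to 774 to 975 FPKM with vehicle and to 852, 396 and 322 with arachidonic acid, so that replicates 2 and 3 lay below the vehicle libraries. The sums over 7 goblet cell markers were 1608 to 2032 FPKM with vehicle and 369 to 716 with arachidonic acid, and 4 of 5 tested genes fell. Those over 7 Paneth cell markers were 2059 to 3127 and 471 to 1053 FPKM, and 6 of 6 tested genes fell. Those over 7 enteroendocrine markers were 603 to 712 and 115 to 155 FPKM, and all 7 genes fell. The 5 tuft cell markers summed to 2.11 to 3.38 FPKM with vehicle and 2.13 to 3.59 with arachidonic acid. The part of these cell types in the differences of Akr1c14, Akr1b8 and the other members was not tested.

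The genes whose pattern over the 6 libraries was most like that of 2 members were taken by Pearson's r of log2(FPKM + 1), as a description. For Akr1b8 they were Dok7, Col4a1, Nudt7, Tead4 and Cd44, with r from 0.9987 to 0.9996. Their levels with vehicle and arachidonic acid were 1.40 and 10.1 FPKM for Dok7, 0.195 and 26.5 for Col4a1, 6.18 and 11.7 for Nudt7, 0.135 and 8.92 for Tead4, and 20.1 and 65.0 for Cd44. For Akr1c14 they were Thap4, Tmem176a, Clca3a1, Tmem131l and Idh3g, with r from 0.9989 to 0.9993. These r values rest on 6 points that share the group difference and the place of arachidonic acid replicate 1. Col4a1 and Tead4 had vehicle means under 1 FPKM, so that they passed the filter through the other group.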

How the data were processed

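RNA-seq of 6 organoid libraries, 3 per group by their titles, was deposited as 1 FPKM value per gene and library; the authors' FPKM divide fragments by gene length and assigned fragments, as inferred from the values, since no label or header names the unit. featureCounts 1.5.0-p3, HISAT2 2.0.5 and StringTie 1.3.3b are the tools named, per the submitters' processing notes, with neither role nor order. The sources used here do not give build, annotation or strand setting, so antisense and overlapping genes are uncertain. FPKM times mean GENCODE M21 transcript length fell within 0.1 of a whole multiple of 1 step for 96.3% to 96.8% of values under 100 fragments, which gave the depth.

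Genes whose mean was not under 1 FPKM were fitted as log2(FPKM + 1) with limma 3.58.1 in R 4.3.3 (trend, group only, two-sided), the FPKM form of a plan that depended on the unit. The fit was also run on simulated data with the same spread setting for all genes and few changed genes. Those settings differ from these data, so that run checks the code and not the calls given here. Named partner genes were the 4 per list of smallest p, plus Nqo1, Gclc, Aldh1a1, Aldh3a1, Me1, G6pdx, Sord, Ptgs2 and Nfe2l2. One gene that this rule names is not reported here. For likeness, 5 genes were named for Akr1b8 and for the member that fell most. Symbols matched 53274 of 53953 rows. Coding sequences and promoters were aligned globally with Biopython 1.88. Python 3.11.15, pandas 2.3.3, numpy 2.4.6 and matplotlib 3.10.9 were used. The members and lists were chosen with earlier results of these data known. No label says that equal replicate numbers mark a shared source. Alternatives were another pseudocount, filters, scalings, limma-voom, a replicate block and each library left out.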

Additional observations from a re-analysis of the deposited data

How the results depend on the processing

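The directions of all 9 Akr genes held under all alternatives run (14 each, 13 for Akr1b7, which a minimum mean of 5 FPKM removed), and the calls of Akr1b3, Akr1b7, Akr1b8, Akr1c14 and Akr1c19 held under each of them. The Akr genes called lower, 2 in the fit reported, numbered 1 with no filter on low values and 1 after rescaling to TPM, where the call of Akr7a5 was lost, and 1 to 3 with 1 library left out; those called higher, 5, numbered 4 to 6. With 1 library left out, all tested genes called higher numbered 1712 to 3554 and lower 1245 to 4192, and the partner genes called lower numbered 6 to 26 and higher 49 to 62. The highest of each of these counts was without arachidonic acid replicate 1. The count of lower genes moved by over 1.5 times without each of the 6 libraries, and that of higher genes without vehicle replicate 1 or arachidonic acid replicate 3; the cause was not tested.

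Deviations from the group means correlated at -0.0811, 0.210 and -0.0623 for the same replicate numbers across genes, which are not independent replicates. For unlike replicate numbers the correlations ranged from -0.177 to 0.190. The numbers were not taken to pair the libraries because no label says that they do. With the replicate block 2263 genes were higher and 1998 lower, against 2690 and 2502, and 5 Akr genes were higher and 2 lower as before, with Akr1c12 in place of Akr1c13. In the vehicle order of levels 7 of 8 pairs of neighbours did not overlap, and 8 with merged exon lengths. Depth limits the vehicle values of Akr1b8 and Akr1b7, at 34.0 to 124 fragments. Counting error is only one part of the spread.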

Other observations

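The genes that flank the Akr genes in RefSeq, chosen by position alone, were read in the same fit, except Slc66a1, next to Akr7a5. No row was found under that symbol, so its level is not given. Beside the run on chromosome 6, Slc35b4, a sugar nucleotide transporter next to Akr1b3, did not pass (log2 fold change -0.13, 95% interval -0.36 to 0.10, limma adjusted p = 0.33), and Bpgm, bisphosphoglycerate mutase, next to Akr1b7, rose from 31.6 ± 2.95 to 45.1 ± 3.52 FPKM (SD, n = 3 libraries per group), a log2 fold change of 0.50 (SE 0.09, limma adjusted p = 0.0072). Beside the run on chromosome 13, Klf6, a zinc finger transcription factor next to Akr1e1, rose from 15.3 ± 2.18 to 22.8 ± 1.88 FPKM, a log2 fold change of 0.56 (SE 0.12, limma adjusted p = 0.011). Ucn3, urocortin 3, a peptide hormone gene next to Akr1c14, was at 1.54, 1.54 and 1.23 FPKM with vehicle and at 0.253, 0.209 and 0 with arachidonic acid, a gene too low on average to be tested. On chromosome 4, Prdx1, a peroxiredoxin next to Akr1a1 that also stands in the NRF2 list, rose from 631 ± 16.5 to 1060.3 ± 126 FPKM, a log2 fold change of 0.74 (SE 0.09, limma adjusted p = 0.0024). Nasp, a histone chaperone on the other side of Akr1a1, and Mrto4, a ribosome assembly factor next to Akr7a5, did not pass (log2 fold change -0.28 and 0.31, limma adjusted p = 0.11 and 0.055). Akr1d1 and Akr1cl, which were at or near 0, have flanking genes too. Trim24, a transcription cofactor next to Akr1d1, fell from 62.9 ± 3.57 to 37.1 ± 4.62 FPKM, by 0.75 on the log2 scale (SE 0.10, limma adjusted p = 0.0027). Among the flanking genes outside the family that were read, it was the only gene called lower. Creb3l2, on the other side of Akr1d1, and Plekhm3, next to Akr1cl, did not pass (log2 fold change 0.19 and -0.05, limma adjusted p = 0.29 and 0.79), and Cryge, on the other side of Akr1cl, was listed at 0 in every library.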
